A study of Mus musculus with 9 samples.

Results

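Skeletal muscle contractile and myogenic genes were followed across the E14.5 mouse skull RNAseq. They are a list of 43 genes of the 43548 gene identifiers in the expression table, chosen by their symbols with their lower values in the MCAGF8 vault already known. The comparison of MCAGF8 with control vaults therefore chose them and is given below as a description. All 43 were found, and each has 1 row. All 43 also passed the filter on low values, a mean of at least 0.5 FPKM (fragments per kilobase of transcript per 1000000 mapped reads) over the 9 libraries.

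MCAGF8 embryos carry Msx2-Cre and the CAGFgf8 allele, so that Cre, driven by the Msx2 promoter in surface ectoderm, switches on Fgf8b. Controls are labelled wildtype, and the study describes them as lacking Cre. By its breeding scheme, with the allele parent homozygous, controls also carry the allele in its inactive form. All embryos were of mixed strain at E14.5. Each of the 3 groups (MCAGF8 vault, control vault, control cranial base) had 3 libraries, and each library was a pool of 3 of the group's 9 tissue samples, so the spread given here is between pools and not between embryos. Skin was peeled off before the vault tissue was taken, and the cranial base was sampled for its cartilage. No source says if a vault pool and a base pool came from the same embryos.

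Skeletal muscle fibres form when myoblasts, specified by the basic helix-loop-helix factors Myf5, Myod1, Myog and Myf6, leave the cell cycle and fuse. Each fibre is packed with sarcomeres, in which myosin thick filaments slide along actin thin filaments. Nerve input through the acetylcholine receptor releases calcium from the sarcoplasmic reticulum, and calcium bound to troponin C on the thin filament permits contraction. At the side of the skull the temporalis and other head muscles attach near the vault, and eye and neck muscles attach to the cranial base. These genes thus report on muscle in or beside the dissected tissue. In pooled tissue, fewer muscle cells and less muscle RNA per cell cannot be told apart.

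Several libraries stood apart and bear on the values below. Control base libraries 1 and 3 had few cartilage markers, although the study describes the base tissue collected as cartilaginous. Their summed FPKM of 7 cartilage markers was 379 and 637, against 4862 in base library 2 and 801 to 2287 in the 6 vault libraries. The same 2 libraries had 478 and 658 FPKM of 6 skin epidermis markers, while base library 2 had 55.8. Brain neuron markers (5 genes) summed to 207.5, 137 and 528 FPKM in base libraries 1, 2 and 3 and to 20.5 to 73.6 in the 6 vault libraries. In the vaults the epidermis sum was 8.88 to 90.3 in controls and 374 to 798 in MCAGF8. Fgf8 itself was 19.5, 9.43 and 13.0 FPKM in the MCAGF8 vaults and 13.5, 8.25 and 3.00 in the control vaults, so the groups overlapped for the gene the allele raises. The study also reports no difference in Fgf8 and ties this to the removed skin, where the allele is active. It found Dusp6, Spry4 and Htra1 raised in the MCAGF8 vault. The part of each of these marker differences between libraries in the muscle values was not tested.

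Upstream sequence, which the choice of genes did not use, is shown first. RefSeq promoters (GRCm38.p6), taken as the 250 bases before each annotated start, were found for 32 of the 43 genes, 35 promoters in all. The E-box, spelled CANNTG, is the site that myogenic basic helix-loop-helix factors bind, and the form CAGCTG is the same on both strands and is counted within it. A set of 3 genes from the group that was lower in MCAGF8 is shown with 3 whose MCAGF8 and control libraries overlapped, and capitals mark each CANNTG. The first 3 are Mylpf (chr7:127211358-127211607, plus strand), Tnnc2 (chr2:164779735-164779984, minus strand) and Chrna1 (chr2:73580339-73580588, minus strand). The other 3 are Myh8 (chr11:67276874-67277123, plus strand), Mybpc1 (chr10:88605153-88605402, minus strand) and Pax7 (chr4:139832969-139833218, minus strand). Each is written 5′ to 3′ on the strand of its gene.
Mylpf: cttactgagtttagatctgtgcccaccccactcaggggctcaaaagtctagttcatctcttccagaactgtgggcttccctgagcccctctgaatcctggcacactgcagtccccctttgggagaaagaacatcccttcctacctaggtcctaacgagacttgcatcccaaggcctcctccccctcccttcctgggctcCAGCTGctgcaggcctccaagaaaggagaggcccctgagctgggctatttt
Tnnc2: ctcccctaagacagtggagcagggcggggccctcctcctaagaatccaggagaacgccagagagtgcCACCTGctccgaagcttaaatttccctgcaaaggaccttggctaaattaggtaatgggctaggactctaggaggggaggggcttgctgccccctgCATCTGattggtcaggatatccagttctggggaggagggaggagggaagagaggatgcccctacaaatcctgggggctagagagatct
Chrna1: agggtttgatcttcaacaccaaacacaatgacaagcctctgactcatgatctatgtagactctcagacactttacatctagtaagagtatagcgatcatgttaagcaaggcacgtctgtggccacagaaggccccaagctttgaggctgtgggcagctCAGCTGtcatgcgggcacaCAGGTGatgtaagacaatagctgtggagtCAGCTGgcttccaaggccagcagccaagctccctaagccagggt
Myh8: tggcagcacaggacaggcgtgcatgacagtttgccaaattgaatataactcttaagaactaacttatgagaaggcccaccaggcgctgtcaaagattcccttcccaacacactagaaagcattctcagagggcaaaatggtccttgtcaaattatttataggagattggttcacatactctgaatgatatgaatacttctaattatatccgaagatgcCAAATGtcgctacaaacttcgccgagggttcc
Mybpc1: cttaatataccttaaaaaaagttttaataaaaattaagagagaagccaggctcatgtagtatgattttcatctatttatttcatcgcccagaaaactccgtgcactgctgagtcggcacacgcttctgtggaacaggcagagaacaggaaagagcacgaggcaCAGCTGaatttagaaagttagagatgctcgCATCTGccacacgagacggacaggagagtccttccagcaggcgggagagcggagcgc
Pax7: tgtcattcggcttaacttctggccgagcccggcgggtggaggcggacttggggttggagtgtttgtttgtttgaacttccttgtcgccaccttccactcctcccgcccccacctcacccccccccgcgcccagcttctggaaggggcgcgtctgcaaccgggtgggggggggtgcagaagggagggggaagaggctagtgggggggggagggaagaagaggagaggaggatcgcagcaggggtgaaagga

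The Chrna1 window held 3 E-boxes, which began 92, 73 and 44 bases before the start, and those at 92 and 44 had the form CAGCTG. Mylpf had a single CAGCTG 51 bases before its start. Tnnc2 had E-boxes of other forms at 183 and 88 bases. Among the genes that did not separate, Mybpc1 had a CAGCTG at 87 bases and another E-box at 57, Myh8 had 1 E-box at 32 bases, and Pax7 had none. Over all 35 member promoters, 29 (82.9%) held a CANNTG and 17 (48.6%) held a CAGCTG. Among 32851 mouse promoters of the same length, the shares were 66.2% and 13.0%. The member promoters without a CANNTG were those of Actc1, Myf5, Myl4, Ryr1, Smyd1 and Pax7. For all of these but Pax7, every MCAGF8 library lay below every control base library. Tpm2, whose MCAGF8 and control libraries overlapped, had a CAGCTG at 227 bases. The MEF2 box, site of the Mef2 factors that act with the myogenic factors, was in 2 member promoters (5.71%, against 0.508% of all), those of Klhl41 and Ttn. The CArG box, read by serum response factor, was in 2 (5.71%, against 1.47%), those of the skeletal and cardiac actin genes Acta1 and Actc1. TATAAA was in 3 (8.57%, against 7.59%). A match of letters describes the window and is not evidence of binding, and the lower and the overlapping genes were not tested against each other.

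Summed over the 43 genes, muscle RNA was scarce in every MCAGF8 vault. The sum was 266, 399.9 and 659.5 FPKM in the 3 MCAGF8 vault libraries. In the control vaults it was 1918, 10452 and 3034 FPKM, and in the control bases 17592, 3348 and 8209.5. No MCAGF8 library reached the lowest control, and the control libraries of each tissue themselves spread over 5-fold: 5.45-fold among vaults and 5.25-fold among bases. The mean sum was 11.6-fold higher in control than in MCAGF8 vaults, and 22.0-fold higher in the control base than in MCAGF8 vaults. Without control vault library 2 the first ratio was 5.61, and without control base library 1 the second was 13.1. The control base mean was 1.89-fold that of the control vault, less than the spread within either, and this ratio was 3.92 without control vault library 2 and 1.12 without control base library 1. Mylpf, Actc1, Acta1, Tpm2 and Myl4 are the 5 highest members, and without them the ratios were 11.3, 18.5 and 1.64. Genes whose MCAGF8 and control vault libraries overlapped weighed on the MCAGF8 sum. Tpm2, Mybpc1 and Myh8 had means of 145, 46.8 and 25.3 FPKM in MCAGF8 vaults, where the mean sum was 441.8. Their own folds of control vault over MCAGF8 means were 2.22, 0.754 and 1.32, so they lowered the first ratio. Of these only Tpm2 is among the 5 left out, and the ratios without all 3 were not computed. The folds of single genes also rested on single libraries. The fold of control vault over MCAGF8 means moved by over 1.5 times for 36 of 43 members without control vault library 2 and for 34 without MCAGF8 library 3. The fold of control base over MCAGF8 moved so for 34 without MCAGF8 library 3 and for 13 without control base library 1. As a share of all FPKM in a library, the members made up 0.0314% to 0.0777% in MCAGF8 vaults, 0.206% to 1.02% in control vaults and 0.422% to 1.34% in control bases.

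**Figure D1:**
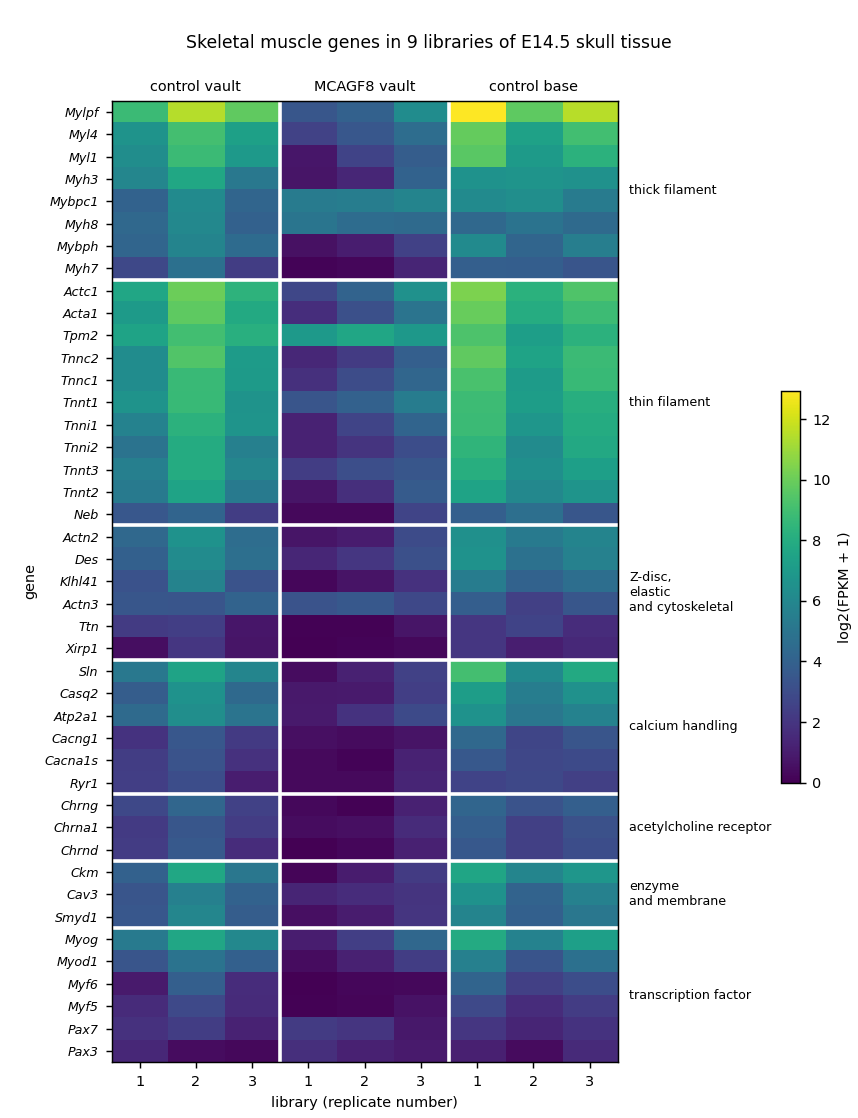
Heat map of log2(FPKM + 1) for the 43 muscle genes (rows, grouped by role and ordered by mean level) in the 9 libraries (columns, by group and replicate number). In 37 rows every MCAGF8 cell is darker than every control base cell, the other 6 being Tpm2, Mybpc1, Myh8, Actn3, Pax7 and Pax3, and control vault library 2 is brighter than libraries 1 and 3 in most rows.

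Between the vaults, muscle genes of every role were lower in all 3 MCAGF8 libraries. In the fit with limma over 18714 genes, where a call needed an unadjusted p under 0.05 and an adjusted p under 0.1, 16 of the 43 were called lower in the MCAGF8 than in the control vault and 0 higher, where 0.374% of all genes were called lower. For 35 of the 43, every MCAGF8 library lay below every control vault library, and 9.35% of all genes did so. As the members were chosen on this comparison, neither count is a finding. Their median log2 difference was −3.05, against −0.00885 over all genes. The call depends on the spread of the libraries: leaving out control base library 2 gave 21, and leaving out any other 1 library gave 0 to 2. The 8 genes whose libraries overlapped were Myh8, Mybpc1, Tpm2, Neb, Actn3, Ryr1, Pax7 and Pax3.

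Against the control cranial base, 37 of the 43 were called lower in MCAGF8 vaults and 0 higher. The MCAGF8 libraries are those of the vault comparison, so this count is not independent of the choice of genes. Of all genes, 5.41% were called lower. In all 37, every MCAGF8 library lay below every base library, and 13.0% of all genes did so. The log2 differences of these 37 ran from −6.82 to −1.38 (limma adjusted p 0.00555 to 0.0936), and the median over the 43 was −3.79. The 6 not called were Myh8, Mybpc1, Tpm2, Actn3, Pax7 and Pax3. With base libraries 1 and 3 both left out, 1 of the 43 was called, 35 had an unadjusted p under 0.05 and the median was −2.91. The base then stood on library 2 alone, which was assumed to vary like the other groups. Libraries 1 and 3 were the pair with few cartilage markers. In all other alternatives that tested them, 28 of the 37 remained called, and 9 lost the call in at least 1. Cacna1s, counted in the 28, fell below the filter of at least 5 FPKM (mean 4.46) and was not tested there. Without MCAGF8 library 1 all 9 lost it (Neb, Ttn, Xirp1, Ryr1, Chrna1, Chrnd, Myod1, Myf5 and Myf6), without MCAGF8 library 2 Neb, Ttn, Xirp1, Ryr1, Chrna1 and Myf6 did, and without control base library 1 Ttn, Xirp1, Ryr1 and Myf6 did. Xirp1 and Myf6 lost it without MCAGF8 library 3, and Xirp1 and Ryr1 without control base library 3.

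Between the 2 control tissues the muscle genes did not separate. With limma, 0 of 43 were called, 0 had an unadjusted p under 0.05, and 3.06% of all genes were called in either direction. The median log2 difference of base over vault was 0.66, against 0.067 over all genes, with 40 members above 0 and 3 below. No member had all base libraries on one side of all vault libraries, where 15.5% of all genes did. The 2 tissues could not be told apart in muscle RNA, and the standard errors of 0.38 to 0.98 on the log2 scale leave room for sizeable differences. Without control vault library 2, the richest in muscle RNA, 1 of 43 was called and 18 had an unadjusted p under 0.05. This comparison shares its control vault libraries with the first and its base libraries with the second.

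**Figure D2:**
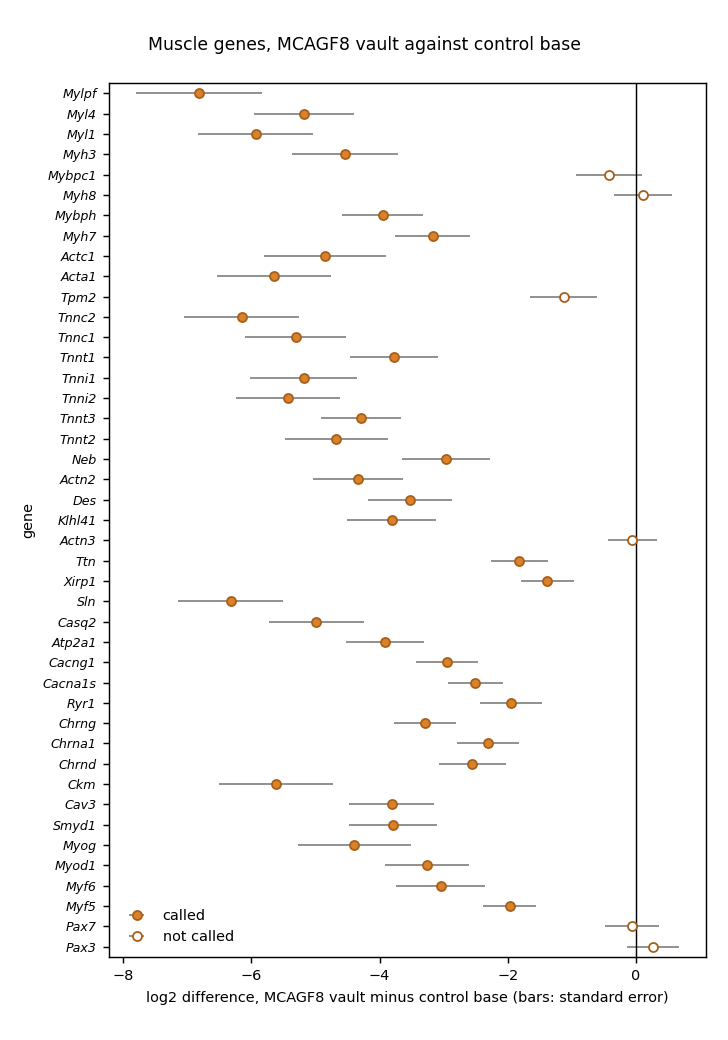
Log2 difference on the log2(FPKM + 1) scale, MCAGF8 vault minus control base, for each of the 43 muscle genes (points) with its standard error from limma (bars). Filled points are the 37 called lower; open points are Myh8, Mybpc1, Tpm2, Actn3, Pax7 and Pax3, which lie between −1.13 and 0.27.

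Of the 6 transcription factors, the 4 myogenic factors were called lower in MCAGF8 than in the base and the 2 Pax genes were not. Myog, which drives the terminal differentiation of myoblasts, was 38.8, 199.9 and 63.7 FPKM in control vaults, 1.06, 4.26 and 19.0 in MCAGF8 vaults and 237, 52.8 and 155.9 in control bases. Every MCAGF8 library was below every control library. Its log2 difference from the base was −4.39 ± 0.88 (SE; limma adjusted p 0.0222), and the control vault mean was 12.4-fold that of MCAGF8 (6.32 without control vault library 2 and 37.8 without MCAGF8 library 3).

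Myod1, a determination factor, was 9.64, 29.7 and 14.52 FPKM in control vaults, 0.339, 1.29 and 4.09 in MCAGF8 vaults and 47.9, 9.31 and 26.1 in control bases. Every MCAGF8 library was again below every control library, and the log2 difference from the base was −3.26 ± 0.65 (adjusted p 0.0221). Myf5, the earliest of the 4 factors in the trunk, was lower in level throughout. It was 2.05, 6.19 and 2.06 FPKM in control vaults, 0.0543, 0.147 and 0.528 in MCAGF8 vaults and 6.32, 2.16 and 3.84 in control bases, a log2 difference of −1.97 ± 0.41 from the base (adjusted p 0.0258).

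Myf6, also called Mrf4, which is expressed in differentiating fibres, was listed at 0 in MCAGF8 library 1 and was 0.159 and 0.223 FPKM in libraries 2 and 3. Control vaults had 0.894, 14.3 and 2.10, a 16.0-fold spread, and control bases 16.6, 4.43 and 7.34. Its log2 difference from the base was −3.05 ± 0.70 (adjusted p 0.0381). MCAGF8 libraries again lay below all controls.

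Pax7 and Pax3 did not follow them. Pax7 marks muscle progenitors and satellite cells and is also expressed in cranial neural crest. It was 2.59, 4.11 and 1.38 FPKM in control vaults, 3.72, 2.94 and 0.801 in MCAGF8 vaults and 3.14, 1.49 and 2.70 in control bases. The 3 ranges overlapped, and the log2 difference from the base was −0.063 ± 0.42 (adjusted p 0.958). Pax3, which marks trunk myogenic progenitors and neural crest and is not required for most head muscle, was 1.74, 0.369 and 0.216 FPKM in control vaults, 2.38, 1.27 and 0.893 in MCAGF8 vaults and 1.17, 0.31 and 1.93 in control bases. These ranges overlapped too, with a log2 difference from the base of 0.27 ± 0.40 (adjusted p 0.773). Both are low in level, and a missed call does not show that levels were equal.

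Among thick filament genes, Mylpf was the most abundant member of all. It encodes the regulatory light chain of fast skeletal myosin. Its levels were 446, 2851 and 862 FPKM in control vaults, 9.82, 14.9 and 76.8 in MCAGF8 vaults and 7750.3, 845 and 2911 in control bases. The MCAGF8 libraries lay far below all others. The mean was 41.0-fold higher in control than in MCAGF8 vaults (19.3 without control vault library 2 and 112 without MCAGF8 library 3), and the log2 difference of MCAGF8 from the base was −6.82 ± 0.98 (adjusted p 0.00782).

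The alkali light chains went the same way. Myl4, the embryonic and atrial form, was 97.2, 539 and 163 FPKM in control vaults, 4.89, 10.4 and 23.5 in MCAGF8 vaults and 918, 166 and 506 in control bases. Myl1, the fast skeletal form, was 78.3, 445 and 125 FPKM in control vaults, 0.699, 5.05 and 12.9 in MCAGF8 vaults and 788, 131 and 313 in control bases. Both were called lower than in the base.

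The myosin heavy chains did not move as 1 group. Myh3, the embryonic heavy chain, was 59.7, 209 and 34.8 FPKM in control vaults, 0.686, 1.58 and 15.7 in MCAGF8 vaults and 94.9, 103 and 91.1 in control bases. Myh7, the slow and cardiac beta heavy chain, was lower in level with a like pattern, with means of 12.1 ± 12.3 (SD, n = 3) FPKM in control vaults, 0.587 ± 0.797 in MCAGF8 vaults and 12.4 ± 2.48 in control bases. Both were called lower than in the base. Myh8, the perinatal heavy chain, was 19.9, 64.7 and 15.3 FPKM in control vaults, 32.0, 22.6 and 21.3 in MCAGF8 vaults and 19.7, 28.9 and 21.2 in control bases. Its groups overlapped, and its log2 difference from the base was 0.11 ± 0.45 (adjusted p 0.931).

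The 2 myosin-binding proteins also parted. Mybph was called lower than in the base, with means of 31.9 ± 21.5 FPKM in control vaults, 2.04 ± 2.24 in MCAGF8 vaults and 44.6 ± 26.6 in control bases. Mybpc1, the slow form of myosin-binding protein C, was 15.8, 72.5 and 17.6 FPKM in control vaults, 39.8, 43.8 and 56.8 in MCAGF8 vaults and 71.4, 83.4 and 40.5 in control bases. Its log2 difference from the base was −0.42 ± 0.52 (adjusted p 0.712), and from control vault to base it was 1.15 ± 0.52 (adjusted p 0.391), the lowest adjusted p of any member between the control tissues. About 49.9% of the exon bases of Mybph are shared with Adora1 on the opposite strand, which was at 0.505 to 4.01 FPKM.

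Thin filament genes were called in 10 of 11 cases against the base. Actc1, the cardiac actin that is also the main actin of embryonic skeletal muscle, was 199, 1052 and 322 FPKM in control vaults, 5.79, 16.5 and 92.4 in MCAGF8 vaults and 1327, 306 and 660 in control bases. Acta1, the skeletal actin that becomes the main form in mature fibres, was 129.9, 848 and 227 FPKM in control vaults, 2.24, 7.93 and 30.3 in MCAGF8 vaults and 967, 252 and 467 in control bases. For both, MCAGF8 libraries were below every control library. The log2 differences from the base were −4.86 ± 0.95 for Actc1 (adjusted p 0.0203) and −5.65 ± 0.89 for Acta1 (adjusted p 0.0102).

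Tpm2, beta-tropomyosin, was the exception in the thin filament. It was 181, 506 and 280.1 FPKM in control vaults, 123, 196 and 116 in MCAGF8 vaults and 624, 149 and 319 in control bases. MCAGF8 library 2 exceeded control vault library 1, so the groups overlapped, and the control vault mean was 2.22-fold that of MCAGF8. The log2 difference from the base was −1.13 ± 0.52 (adjusted p 0.269). Tpm2 is also made by smooth muscle and other non-skeletal cells. A list of 8 smooth muscle markers summed to 347 to 598 FPKM in control vaults, 243 to 335 in MCAGF8 vaults and 204 to 592 in control bases, a much narrower range than the skeletal genes. The part of smooth muscle in Tpm2 was not tested.

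The troponins, which make the thin filament sensitive to calcium, were called lower in all 7 cases against the base, with mean folds of base over MCAGF8 from 13.3 (Tnnt1, the slow troponin T) to 76.6 (Tnnc2, the fast troponin C, 48.0 without control base library 1 and 185 without MCAGF8 library 3). Tnnc2 was 75.8, 681 and 134 FPKM in control vaults, 1.74, 3.67 and 14.2 in MCAGF8 vaults and 874, 178 and 449 in control bases. About 74.0% of its exon bases are shared with Ube2c on the opposite strand, a cell cycle gene at 64.8 to 142 FPKM in every library. The library kit kept the strand, but whether counting used it is not stated, so values of Tnnc2 are less certain. Neb, the giant protein that lines the thin filament, was called lower than in the base, and its MCAGF8 library 3 (5.23 FPKM) exceeded control vault library 3 (4.04 FPKM).

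Of the 6 genes of the Z-disc, the elastic filament and the cytoskeleton, 5 were called lower than in the base. Actn2, which crosslinks actin at the Z-disc, was 19.7, 96.8 and 23.8 FPKM in control vaults, 0.655, 0.959 and 6.71 in MCAGF8 vaults and 88.6, 39.4 and 55.8 in control bases. Des, the muscle intermediate filament desmin, was 14.3, 74.5 and 24.9 FPKM in control vaults, 1.59, 3.06 and 7.88 in MCAGF8 vaults and 94.5, 27.7 and 50.8 in control bases. Klhl41, which stabilises nebulin, was 8.40, 53.1 and 8.80 FPKM in control vaults, 0.175, 0.605 and 2.55 in MCAGF8 vaults and 42.5, 15.8 and 24.3 in control bases. For each of the 3, every MCAGF8 library was below every control library, and Klhl41 had a log2 difference of −3.81 ± 0.69 from the base (adjusted p 0.0154) and Des −3.52 ± 0.66 (adjusted p 0.0171).

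Ttn (titin) and Xirp1 (an actin-binding protein of cell junctions) were called at lower levels, with base over MCAGF8 folds of 13.7 and 19.4 (75.7 and 40.1 without MCAGF8 library 3). Xirp1 was listed at 0 in MCAGF8 library 1. Its call was at the edge of the threshold (limma adjusted p 0.0936) and was lost in 12 of 17 alternatives, and that of Ttn (adjusted p 0.0494) in 4 of 17. Actn3, the fast-fibre partner of Actn2, did not follow it. It was 10.0, 9.57 and 16.5 FPKM in control vaults, 8.79, 10.7 and 5.95 in MCAGF8 vaults and 13.6, 4.55 and 9.98 in control bases. The log2 difference from the base was −0.055 ± 0.38 (adjusted p 0.961).

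All 6 calcium-handling genes were called lower than in the base, although the call of Ryr1 (limma adjusted p 0.0504) was lost in 7 of 17 alternatives. Sln encodes sarcolipin, a small inhibitor of the calcium pump. It was 34.8, 180.0 and 58.5 FPKM in control vaults, 0.325, 1.26 and 4.64 in MCAGF8 vaults and 535, 70.1 and 228 in control bases. Its fold of base over MCAGF8 means was 134, which was 71.8 without control base library 1 and 351 without MCAGF8 library 3, and its log2 difference was −6.33 ± 0.82 (adjusted p 0.00555). Between control tissues Sln was 3.05-fold higher in the base mean without passing the test (log2 1.50 ± 0.82, adjusted p 0.536).

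Casq2, a calcium-storing calsequestrin, was 12.9, 96.1 and 20.1 FPKM in control vaults, 0.822, 0.935 and 4.28 in MCAGF8 vaults and 146, 42.8 and 90.9 in control bases, a log2 difference of −4.99 ± 0.73 from the base (adjusted p 0.00823). Atp2a1, the fast-fibre calcium pump SERCA1, was 21.0, 82.8 and 30.3 FPKM in control vaults, 0.926, 2.65 and 6.38 in MCAGF8 vaults and 93.7, 34.4 and 52.1 in control bases. It shares 21.9% of its exon bases with Rabep2 on the opposite strand, which was at 15.7 to 25.5 FPKM. Subunits of the voltage sensor, Cacna1s and Cacng1, and its partner, the release channel Ryr1, were below 20 FPKM in all libraries. Their base over MCAGF8 folds were 13.6, 25.5 and 7.59. Without MCAGF8 library 3 the fold was 43.6 for Cacna1s and 19.7 for Ryr1, and without control base library 1 it was 16.4 for Cacng1. Ryr1 in MCAGF8 library 3 (1.51 FPKM) exceeded control vault library 3 (1.08 FPKM).

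All 3 acetylcholine receptor subunits were called lower in MCAGF8 than in the base. Chrng, the fetal gamma subunit of the acetylcholine receptor, was 5.94, 18.4 and 4.59 FPKM in control vaults, 0.202, 0.0655 and 1.25 in MCAGF8 vaults and 17.4, 8.89 and 14.0 in control bases. Chrna1, the alpha subunit that binds acetylcholine, was 3.51, 9.91 and 3.92 FPKM in control vaults, 0.366, 0.424 and 2.00 in MCAGF8 vaults and 13.5, 4.37 and 8.16 in control bases. Chrnd, the delta subunit, was 3.88, 11.0 and 2.14 FPKM in control vaults, 0.0187, 0.165 and 1.25 in MCAGF8 vaults and 10.8, 4.44 and 7.34 in control bases. MCAGF8 libraries were below all others for each subunit. Log2 differences from the base were −3.29 ± 0.49 for Chrng (adjusted p 0.00825), −2.55 ± 0.52 for Chrnd (adjusted p 0.0235) and −2.31 ± 0.48 for Chrna1 (adjusted p 0.0262).

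Ckm, the muscle creatine kinase, was 15.0, 209 and 33.9 FPKM in control vaults, 0.126, 0.974 and 3.70 in MCAGF8 vaults and 189.6, 57.0 and 110.0 in control bases. The control vault mean was 53.8-fold that of MCAGF8 (15.3 without control vault library 2 and 156 without MCAGF8 library 3), with a 13.9-fold spread among control vaults, and the log2 difference from the base was −5.61 ± 0.88 (adjusted p 0.0102). Cav3, the muscle caveolin of the fibre membrane, was 9.50, 48.9 and 15.5 FPKM in control vaults, 1.49, 2.17 and 2.86 in MCAGF8 vaults and 94.3, 16.5 and 49.5 in control bases. Smyd1, a methyltransferase needed for sarcomere assembly, was 10.5, 61.0 and 13.0 FPKM in control vaults, 0.457, 0.952 and 3.00 in MCAGF8 vaults and 55.2, 14.49 and 33.8 in control bases. All 3 were called lower than in the base.

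**Figure D3:**
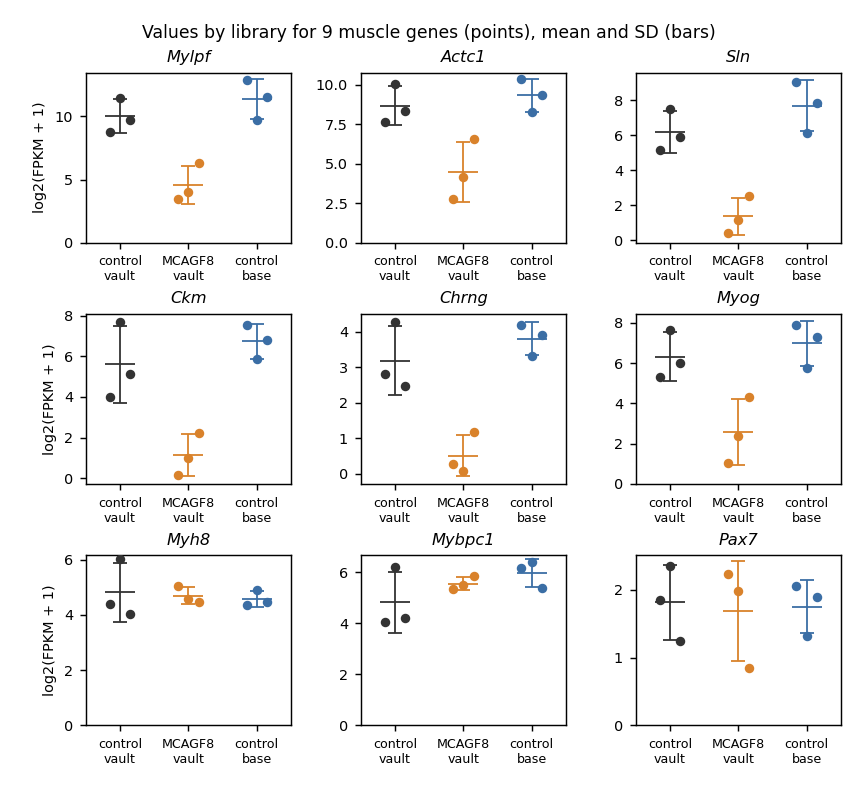
Values of log2(FPKM + 1) for 9 muscle genes in the control vault, MCAGF8 vault and control base libraries (points, 3 per group, drawn left to right by replicate number), with mean and SD (bars). Mylpf, Actc1, Sln, Ckm, Chrng and Myog are below all controls in every MCAGF8 library, while the groups overlap for Myh8, Mybpc1 and Pax7.

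Within a group, the same library was highest for most members. Control vault library 2 was highest of its group for 41 of 43 members, the exceptions being Pax3 (library 1) and Actn3 (library 3). MCAGF8 library 3 was highest for 38, and the other 5 were Myh8, Pax7 and Pax3 (library 1) and Tpm2 and Actn3 (library 2). These 5 are among the 6 that were not called against the base. The remaining one, Mybpc1, was highest in library 3 with the majority. Control base library 1 was highest for 36, library 2 for Myh3, Myh8, Mybpc1, Neb, Ttn and Ryr1, and library 3 for Pax3. Control vault library 2 also had the highest tendon sum of its group (749 FPKM of 6 markers, against 523 and 624) and the lowest bone sum (3822, against 6317 and 6652). MCAGF8 library 3 had the highest epidermis sum of the MCAGF8 vaults (798 FPKM, against 374 and 411) and a cartilage sum of 2287. What these values have to do with the muscle genes was not tested.

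Transcript length went with the differences among libraries. Among the 37 members called against the base, the 12 with the shortest summed exons (up to 1618 bases) had a median ratio of 4.50 between control base libraries 1 and 2, and the 12 with the longest (4163 bases or more) had 1.92. For Mylpf (1062 bases) the ratio was 9.18, and Myh3 (6057 bases), Neb (26582 bases) and Ttn (116825 bases) were below 1. The ratio of base library 3 to 2 behaved likewise, 2.74 against 1.36, and that of control vault library 2 to 1 was 5.48 against 3.30. Between control vault libraries 2 and 3 the order was the opposite, 3.35 for short and 4.68 for long members. Over all genes, the deviation of base library 1 fell by 0.71 on the log2 scale for each 10-fold of exon length, and that of base library 2 rose by 0.32. No value of RNA quality was at hand, and its part was not tested. With this slope as a covariate, 36 of 43 were still called lower than in the base.

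**Figure D4:**
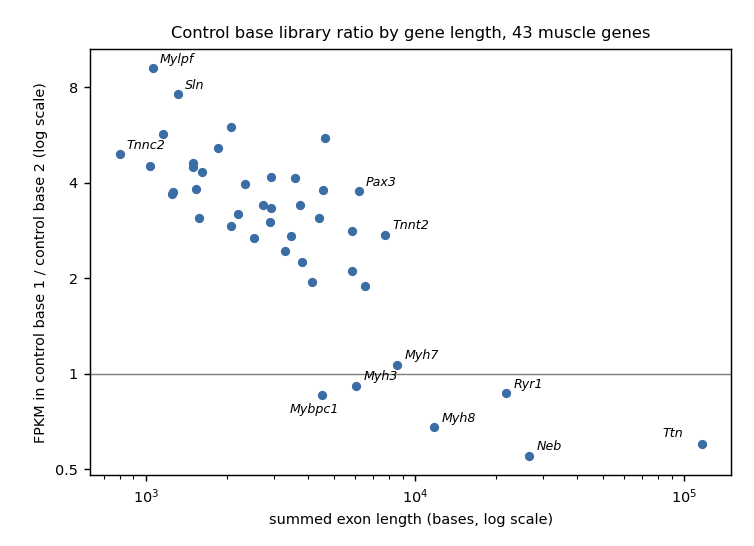
Ratio of FPKM in control base library 1 to library 2 (log scale) against summed exon length in bases (log scale) for the 43 muscle genes (points). The short member Mylpf lies at 9.18, and the long members Neb, Ttn, Ryr1 and Myh8 lie below the line at 1.

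Ratios between members within a library describe the makeup of the members' RNA. They need not describe muscle alone, since Pax7 and Tpm2 are also expressed in other cells. Each ratio was compared with the exact two-sided permutation test, 3 libraries against 3, whose smallest possible p is 0.1, so none could pass 0.05. In all, 6 ratios in 3 comparisons gave 18 tests, over which p was adjusted. Of the 6, Myh8 over Myh3 and Pax7 over Myog set a member that was not called against one known to be low in MCAGF8. Their values are thus given as a description, without p. Their tests were still among the 18, so the adjusted p of the other ratios rests in part on them. It was not computed without them. Acta1 over Actc1 was 0.387, 0.479 and 0.328 in MCAGF8 vaults, 0.652, 0.807 and 0.705 in control vaults and 0.729, 0.824 and 0.708 in control bases. The skeletal actin was thus a smaller part of the pair in all 3 MCAGF8 libraries than in all 6 controls (p 0.1 in the exact permutation test against either control, adjusted p 0.2). Between control tissues the ratio overlapped.

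Tnnc2 over Tnnc1, the fast over the slow and cardiac troponin C, was 0.692, 0.533 and 0.782 in MCAGF8 vaults, 0.981, 1.56 and 1.04 in control vaults and 1.46, 1.33 and 1.09 in control bases (p 0.1 in the exact permutation test against either control, adjusted p 0.2). The overlap of Tnnc2 with Ube2c bears on this ratio. Tnni2 over Tnni1, the fast over the slow troponin I, did not show it. It was 1.01, 0.534 and 0.431 in MCAGF8 vaults, 0.55, 0.763 and 0.465 in control vaults and 0.763, 0.684 and 0.900 in control bases (p 0.9 and 0.5 in the exact permutation test).

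Myh8 over Myh3 was 46.7, 14.2 and 1.35 in MCAGF8 vaults, 0.333, 0.309 and 0.439 in control vaults and 0.207, 0.280 and 0.233 in control bases. Perinatal exceeded embryonic myosin RNA in all MCAGF8 libraries and in no control library, which follows from the low Myh3 that chose it beside a Myh8 whose groups overlapped. Pax7 over Myog was 3.50, 0.689 and 0.0422 in MCAGF8 vaults, 0.0669, 0.0206 and 0.0217 in control vaults and 0.0132, 0.0283 and 0.0173 in control bases. MCAGF8 library 3 lay within the range of the control vaults and above the bases. In both ratios MCAGF8 library 1, the poorest in muscle RNA, was farthest from the controls and library 3, the richest, was nearest. The summed myogenic factors (Myf5, Myod1, Myog and Myf6) over the summed 25 sarcomere genes were 0.00576, 0.0155 and 0.0397 in MCAGF8 vaults, 0.0296, 0.0265 and 0.0298 in control vaults and 0.0191, 0.0229 and 0.0261 in control bases. The MCAGF8 libraries spread over both sides of the controls (p 0.4 and 0.7 in the exact permutation test). The 25 include Tpm2, Mybpc1, Myh8 and Actn3, which were not called against the base. In MCAGF8 library 1, Tpm2 was 123 of the 153 FPKM of thin filament genes. Mybpc1 and Myh8 were 39.8 and 32.0 of the 88.5 FPKM of thick filament genes there. In MCAGF8 library 2, Tpm2 was 196 of the 265 FPKM of thin filament genes. Mybpc1 and Myh8 were 43.8 and 22.6 of the 99.6 FPKM of thick filament genes there. In MCAGF8 library 3 the same values were 116 of 364, and 56.8 and 21.3 of 213. The MCAGF8 ratios and their spread thus rest in large part on genes that did not follow the rest, most of all in library 1. Nothing is read from the spread or its p, and the ratio without these genes was not computed.

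Muscle genes outside the list were counted from a wider list of 65, of which 64 were in the table and 59 were tested. Against the base, 42 of the 59 were called lower in MCAGF8 and 0 higher, beside 5.41% of all genes called lower, with a median log2 difference of −2.29 (−0.066 over all genes). Between the vaults, 6 of the 59 (Myom1, Myom3, Ldb3, Lmod3, Csrp3 and Mef2c) were called lower and 0 higher, beside 0.374% of all genes. The median was −1.61 (−0.00885 over all genes). Mef2c is not particular to muscle, and the study also reports it lower in the MCAGF8 vault, as a regulator that promotes bone differentiation. Its means were 35.4 FPKM in control vaults and 15.2 in MCAGF8 vaults (log2 −1.19 ± 0.22). Between control tissues, Tbx1 and Isl1, transcription factors of head mesoderm and pharyngeal tissue, were called higher in the base, and no other gene of the 59 was called. Tbx1 was 21.9, 19.7 and 16.3 FPKM in control bases and 0.643 to 1.78 in control vaults, and Isl1 was 17.9, 38.8 and 65.7 against 0.301 to 2.11. Both are counted among the 42 called lower in MCAGF8 than in the base. Between the vaults their log2 differences were 0.68 ± 0.26 for Tbx1 and −0.16 ± 0.51 for Isl1, and neither was called.

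Of the called genes of this wider list, the 6 with the highest mean were Eno3, Csrp3, Itgb1bp2, Pgam2, Smpx and Cox6a2. Csrp3, the muscle LIM protein of the Z-disc, was 14.9, 125 and 24.0 FPKM in control vaults, 0.441, 0.797 and 1.93 in MCAGF8 vaults and 207.5, 42.7 and 114 in control bases. Itgb1bp2, or melusin, an integrin-binding protein of striated muscle, was 17.7, 118 and 22.6 FPKM in control vaults and 0.988, 1.12 and 5.13 in MCAGF8 vaults. Eno3, the muscle enolase of glycolysis, kept higher levels, 21.3, 23.9 and 25.5 FPKM in MCAGF8 vaults against 45.7, 122 and 53.7 in control vaults. Pgam2, the muscle phosphoglycerate mutase, had means of 59.2, 11.6 and 68.4 FPKM in control vaults, MCAGF8 vaults and control bases. Smpx, a small protein of the muscle cytoskeleton, had means of 32.3, 2.47 and 66.8 FPKM, and Cox6a2, the muscle form of a cytochrome oxidase subunit, 30.9, 1.57 and 63.5 FPKM in the same order. All 6 were called lower in MCAGF8 than in the base.

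The defining markers of heart were low everywhere. Their summed FPKM was 3.15 to 6.97 in control vaults, 4.77 to 7.08 in MCAGF8 vaults and 11.3 to 26.2 in control bases. Of the 10 cardiac markers, 5 were below 1 FPKM in all 9 libraries, and Nppa, the atrial natriuretic peptide, was listed at 0 in all 6 vault libraries. Members that heart and embryonic skeletal muscle share (Actc1, Tnnt2, Tnnc1, Myl4, Myh7) stood beside these low sums. Tendon, which joins muscle to bone, and bone itself were also given as sums. Tendon markers summed to 523 to 749 FPKM in control vaults, 334 to 369 in MCAGF8 vaults and 177 to 286 in control bases. The 6 bone markers summed to 3822 to 6652 in control vaults, 2224 to 2913 in MCAGF8 vaults and 887 to 2107 in control bases. The tendon and bone sums were lower in every MCAGF8 vault than in every control vault, by smaller ratios than the muscle sum. The tendon sum does not stand for each of its markers. Tnmd, Mkx, Fmod and Thbs4 were lower in every MCAGF8 vault, while Scx and Kera overlapped. Scx was 28.48, 41.25 and 42.72 FPKM in control vaults and 19.23, 42.33 and 18.32 in MCAGF8 vaults. Kera was 17.03, 52.77 and 22.78 against 83.64, 52.3 and 56.6. The bone sum was mostly Col1a1 (2523, 2666 and 2102 FPKM in MCAGF8 vaults) and does not stand for each bone gene. Ibsp was 1487, 679 and 1527 FPKM in control vaults and 11.5, 50.7 and 12.55 in MCAGF8 vaults. Spp1 was 841, 306 and 835.5 against 11.5, 39.6 and 11.8. Sp7 was also lower in every MCAGF8 vault, while Runx2, Alpl and Col1a1 overlapped. The part of tendon and bone in the muscle values was not tested.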

How the data were processed

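RNA from E14.5 skull tissue was sequenced by the authors as stranded single-end libraries, mapped with gSNAP and turned into expression values with Cufflinks. Deposited was 1 table of FPKM, with a row for each Ensembl gene and a column for each of the 9 libraries. Genome build, annotation, program versions and the number of reads per library are not given in the sources used, so the depth behind a value is unknown. Precision rests on the SD of 3 pools per group, and since the pools are not stated to be separate litters, p-values measure only the spread between these pools.

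From the deposited table, 63 rows that repeated an identifier were summed and 9 genes with a placeholder for a missing value were left out. Symbols, positions and exon lengths came from GENCODE M21 (GRCm38) and promoters from RefSeq. Values were taken as log2(FPKM + 1), so differences of low genes are understated. The 18714 genes with a mean of at least 0.5 FPKM entered a fit in limma 3.58.1 (R 4.3.3, 1 mean per group over 9 libraries, eBayes with trend, two-sided), with Benjamini-Hochberg adjustment over all genes. Folds divide one group mean of FPKM by another, with nothing added. Ratios within libraries were compared with the exact permutation test (scipy 1.17.1). The fit was tested on simulated data. Plots were drawn with matplotlib 3.10.9.

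The members and all gene lists were chosen with earlier results of these data known. By the naming rule, the 3 members of highest mean in each role, all 6 transcription factors and all 3 receptor subunits are given library by library, and of the wider list up to 6 of the highest mean among those called. Myh3, Myh8, Mybpc1, Tnnc2 and Actn3 were added in that form after their values were seen. Tbx1, Isl1, Mef2c and single tendon and bone markers were likewise named after their values were seen. Alternatives were the pseudocount (0.1), the filter (none, or a mean of at least 5 FPKM), quantile normalization, rescaling to a sum of 1000000, a fit to the 6 libraries compared, the replicate number as a block and each library left out. Removal of control base libraries 1 and 3 and a covariate for exon length were added after seeing the data.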

Additional observations from a re-analysis of the deposited data

How the results depend on the processing

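The count of muscle genes called lower in MCAGF8 than in the control base, 37, lay between 31 and 37 under another pseudocount, filter, normalization or scaling or a fit to the 6 libraries compared, and was 36 with the length covariate. The 31 came from the filter of at least 5 FPKM, which left 35 members to test. Leaving out each library gave 28 to 38, and leaving out control base libraries 1 and 3 together gave 1. Without those 2 libraries the summed FPKM of the control base was 0.652 of that of the control vault and 7.58-fold that of MCAGF8. The vault count of 16, which chose the genes, was 24 with a pseudocount of 0.1, 0 with no filter (27685 genes tested), 14 with quantile normalization or rescaling, 3 with the 6 libraries compared, 0 to 21 with each library left out (21 without base library 2, 2 without control vault library 2 or base library 1, 1 without MCAGF8 library 3, otherwise 0), 3 without control base libraries 1 and 3 and 4 with the length covariate, while 36 to 39 members had an unadjusted p under 0.05 in the settings over all 43. Between control tissues the count of 0 was 0 to 1 with each library left out, and 0 in all other settings.

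With the replicate block the counts were 0 between vaults, 0 between control tissues and 35 against the base. No source says that the numbers pair the samples, and the values showed no sign of it. Correlations of same-numbered libraries ran from −0.549 to 0.37, and those of differently numbered libraries from −0.482 to 0.563. With 3 libraries per group that differ in other ways, this check cannot exclude shared embryos.

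Rescaling moved the median of all genes from −0.00885 to 0.13 between vaults and from −0.0665 to 0.11 against the base, and the members' medians to −2.88 and −3.64. Of the differences printed, those that changed sign belonged to genes that had not been called. Myh8 against the base was −0.21 without base libraries 1 and 3, −0.046 with the length covariate and −0.064 to 0.27 with each library left out. Actn3 was 0.10 with quantile normalization, 0.15 with rescaling, 0.74 without base libraries 1 and 3, 0.37 with the length covariate and −0.45 to 0.25 with each library left out. Pax7 was 0.24, 0.090, 0.37 and 0.099 in the same order and −0.34 to 0.36 with each library left out, and Pax3 was −0.045 to 0.53 with each library left out. Between control tissues and without base libraries 1 and 3, Mylpf was −0.29, Sln −0.033 and Myog −0.58. The causes were not tested.

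The unknown depth limits the low members most. For example, Myf6, Xirp1, Chrnd and Myf5 were below 2 FPKM in every MCAGF8 library, and the reads behind such values are not known.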
